A study of Mus musculus with 5 samples.

Results

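The cluster of miR-143 and miR-145a was examined in extracellular vesicles (EVs), the membrane particles that cells release with RNA inside. Its members are both strands of the miR-143 hairpin (mmu-miR-143-3p and mmu-miR-143-5p) and both strands of the miR-145a hairpin (mmu-miR-145a-5p and mmu-miR-145a-3p), taken by name from the table of mature miRNAs. They make up 4 of 1966 rows. All 4 had counts, and all 4 passed the filter on low counts. miR-143-5p passed it through the freeze-dried libraries alone, so that its groups had to differ.

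The EVs came from mesenchymal stem cells of C57BL/6-GFP transgenic mice, grown in culture and kept for 48 h in a medium with little serum before small EVs were pelleted at 100000 g. The sources used here state neither the animals' age nor how many separate cultures there were. One group of 2 libraries held EVs that were not freeze-dried. The other group of 3 libraries held EVs that were frozen at -80 °C, freeze-dried overnight in buffer with 25 mM trehalose and left to rehydrate for 1 h. The labels do not say whether the groups also differed in trehalose or freezing, since their protocol lists buffer with 25 mM trehalose and storage at -80 °C for EVs in general, without naming what was used for the libraries that were not freeze-dried. No library of the parent cells was analysed here, so the values describe vesicle RNA and not cellular expression. The spread behind every p-value is that between these libraries, and it may be technical.

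miR-143 and miR-145 are processed from one primary transcript, and the pair is known as a marker and regulator of smooth muscle and stromal cells. In smooth muscle the transcript is driven by serum response factor and its partner myocardin, and the miRNAs repress Klf4, Klf5 and Elk1, regulators that oppose the contractile state. Each hairpin gives a 5p and a 3p strand, of which one, the guide, is usually kept in Argonaute while the other is mostly degraded. The guide is the 3p strand for miR-143 and the 5p strand for miR-145a.

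In GENCODE M21 (GRCm38) the miR-143 hairpin, Mir143, lies on the minus strand of chromosome 18 at 61649196 to 61649258. Mir145a follows it downstream at 61647825 to 61647894, with 1301 bases between the hairpins. The long non-coding RNA gene Carmn, at 61649625 to 61665537 on the same strand, ends 366 bases upstream of Mir143. No other annotated gene overlaps either hairpin. The related miR-145b, which has a hairpin of its own elsewhere, had 0 counts in all 5 libraries.

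Total counts ranged from 131507 to 2914305 per library. Not freeze-dried replicate 1 and freeze-dried replicates 1 and 2 had at least 500000 counts each and are called deep, and not freeze-dried replicate 2 and freeze-dried replicate 3 are called shallow. Of 32 listed mesenchymal and fibroblast miRNAs 31 had a count, and together they took 30.2% to 37.5% of the counts without freeze-drying and 26.0% to 32.4% with it. The endothelial, epithelial, leukocyte, red cell and striated muscle lists each stayed at or under the 0.479% that striated muscle reached in one freeze-dried library. Of 5 leukocyte miRNAs 3 had a count, led by miR-155-5p with 147 to 2336 counts. miR-150-5p reached 157 and miR-223-3p 97 counts, both in not freeze-dried replicate 1. miR-142a-3p and miR-142a-5p were at 0 in every library. Of 8 epithelial miRNAs 5 had a count, led by miR-203-3p with 35 to 1109 counts. miR-200a-3p reached 241 counts in freeze-dried replicate 2, and miR-200b-3p, miR-375-3p and miR-205-5p reached 93, 42 and 24 in freeze-dried replicate 1. miR-182-5p and miR-183-5p, which this list does not hold, had 2812 and 2984 counts in not freeze-dried replicate 1. Of the list, miR-200c-3p, miR-141-3p and miR-429-3p were at 0. miR-490-3p, which is enriched in smooth muscle, was also at 0.

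The guide strand of miR-143 dominated the cluster and ranked among the most abundant miRNAs of the vesicles. miR-143-3p had rank 3 and rank 4 by counts in the 2 libraries made without freeze-drying, and ranks 5, 3 and 6 in the 3 freeze-dried ones. It made up 92.0% and 97.0% of the cluster's counts without freeze-drying and 91.1%, 88.1% and 90.7% after it. Almost all of the cluster's reads were thus reads of this one strand.

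The level of miR-143-3p was lower in every freeze-dried library than in either not freeze-dried library. Levels are in CPM, counts brought to a common library total, and scaled with the trimmed mean of M-values (TMM), which sets the typical miRNA equal between libraries. Not freeze-dried replicates 1 and 2 stood at 60911 and 77039 CPM, and freeze-dried replicates 1, 2 and 3 at 46980, 48588 and 34944 CPM. The groups did not overlap, and the lowest value belonged to the shallow freeze-dried library and the highest to the shallow not freeze-dried one.

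The mean was 68975 ± 11404 CPM (SD, n = 2) without freeze-drying and 43504 ± 7457 CPM (SD, n = 3) with it, and the difference did not pass the test. The log2 fold change was -0.66 (SE 0.26, 95% interval -1.25 to -0.08), or 0.631-fold, with an adjusted p of 0.98 (edgeR quasi-likelihood test, Benjamini-Hochberg over 327 miRNAs). The unadjusted p was 0.030, at place 5 from the smallest. edgeR called 0 of the 327 miRNAs, so the background of called miRNAs was 0%, and 9 had an unadjusted p under 0.05. DESeq2 and limma-voom also called 0, with 16 and 15 miRNAs at an unadjusted p under 0.05.

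The direction was the same at either depth, and the size differed. Among the deep libraries the freeze-dried ones stood at 0.771 and 0.798 of the not freeze-dried one. Between the shallow libraries the value was 0.454. These ratios set single libraries against each other and carry no test.

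**Figure D1:**
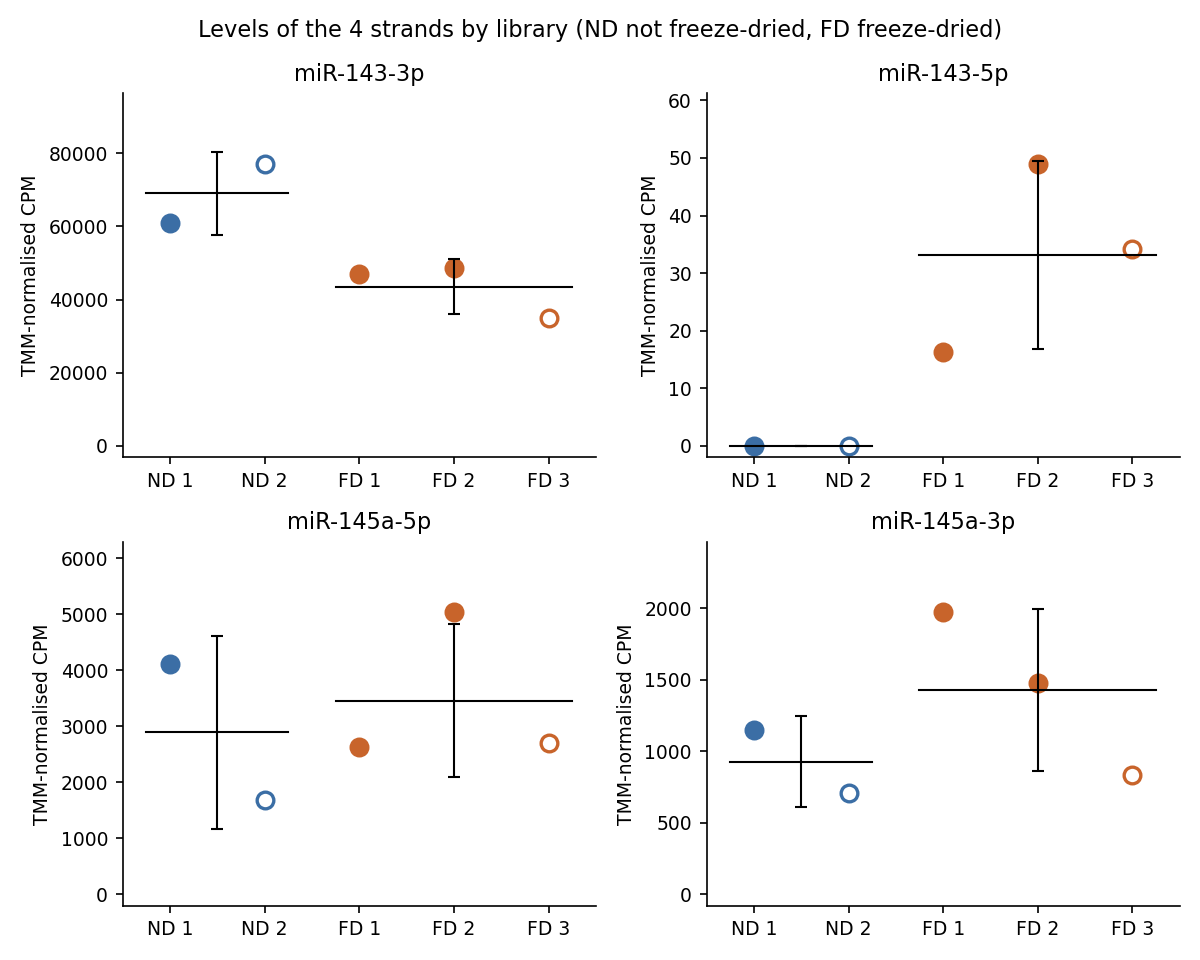
TMM-normalised CPM (vertical axes, linear) of the 4 strands in not freeze-dried (ND, blue) and freeze-dried (FD, orange) libraries (horizontal axes). Filled points are deep and open points shallow libraries, and lines and bars are group means and SD. miR-143-3p lies between 34944 and 48588 CPM in freeze-dried libraries and at 60911 and 77039 CPM in the others, miR-143-5p is at 0 in both not freeze-dried libraries, and the miR-145a strands overlap.

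miR-145a-5p, the guide strand of the second hairpin, showed no such separation. Its level was 4114 and 1679 CPM in replicates 1 and 2 of the not freeze-dried group, and 2629, 5030 and 2710 CPM in freeze-dried replicates 1, 2 and 3. The not freeze-dried libraries included the lowest of the 5 values and the second highest, so the groups overlapped. The group means were 2896 ± 1722 CPM (SD, n = 2) without freeze-drying and 3457 ± 1364 CPM (SD, n = 3) with it. The log2 fold change of 0.25 (SE 0.46, interval -0.77 to 1.28) had an adjusted p of 0.98 in edgeR's test, and its interval holds changes of over 2-fold upwards. Its sign rested on single libraries: leaving out the shallow not freeze-dried library turned it to -0.29 and leaving out freeze-dried replicate 2 to -0.15, whereas it was 1.11 with the deep not freeze-dried library left out.

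miR-145a-3p, the strand usually given as the passenger of miR-145a, was also abundant enough to measure in each library. It had 1152 and 705 CPM without freeze-drying and 1970, 1479 and 837 CPM with it. Both deep freeze-dried libraries were above all others, while the shallow freeze-dried one lay between the 2 not freeze-dried libraries. The mean was 929 ± 316 CPM (SD, n = 2) against 1429 ± 568 CPM (SD, n = 3). Its log2 fold change of 0.62 (SE 0.49, interval -0.48 to 1.72) did not pass the test (edgeR adjusted p = 0.98). Leaving out the shallow not freeze-dried library gave 0.28, leaving out freeze-dried replicate 1 gave 0.33, and leaving out the deep not freeze-dried library gave 1.08.

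miR-143-5p, the passenger of miR-143, was found in every freeze-dried library and in neither of the others. It had 45, 126 and 6 counts in freeze-dried replicates 1, 2 and 3, and 0 counts in both others. By counting error, a count of 0 allows a share of up to 0.000329% in not freeze-dried replicate 1 and 0.00228% in replicate 2, at a floor of 3 counts. The shares in freeze-dried libraries were 0.00154% (exact binomial interval 0.00113 to 0.00207), 0.00509% (0.00424 to 0.00607) and 0.00312% (0.00114 to 0.00679). The limit of the deep not freeze-dried library therefore lies below all 3 freeze-dried shares, while that of the shallow one lies among them.

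Pooled over libraries, miR-143-5p took 177 of 5579933 counts after freeze-drying, 126 of them in replicate 2, against 0 of 1043587. That pooled share was 11.0-fold a floor of 3 counts over the not freeze-dried group. The figure is no lower bound, since it leaves out the error of the 177 counts, and the filter had fixed its direction. It hangs on the deep not freeze-dried library: leaving that out gives 1.39-fold, and leaving out the shallow one 9.64-fold. Leaving out a deep freeze-dried library gives 17.2-fold (replicate 1) or 5.71-fold (replicate 2). With the spread between libraries taken in, edgeR gave a log2 interval that ran from -1.15 to 18.1 and the adjusted p was 0.98.

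Such all-or-none counts were frequent at this level between replicates of one group too. Of 351 miRNAs with at least 45 counts in freeze-dried replicate 1 or 2, both deep, 94 had 0 counts in the other. Between not freeze-dried replicate 1 and freeze-dried replicate 1 this was so for 77 of 334 miRNAs, and with freeze-dried replicate 2 for 68 of 309. Counting error does not cover this spread. A count in all freeze-dried libraries and in none of the others was found for 4 of 517 miRNAs, or 0.774%.

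Of the 3 members other than miR-143-5p, 1 had groups without overlap, miR-143-3p on the lower side. miR-143-5p, on the higher side, is not read against the table, since the filter passed it only through the libraries where it was found. Of all 327 tested miRNAs 17.4% had no overlap, 8.56% on the lower side and 8.87% on the higher side. Of 89 tested miRNAs that averaged 1000 CPM or more, 9 were lower without overlap, or 10.1%, and miR-143-3p was the most abundant of these 9. Of those 89, 7 had a log2 fold change below that of miR-143-3p. Over the whole table of 327 the median was 0.02 on the log2 scale.

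**Figure D2:**
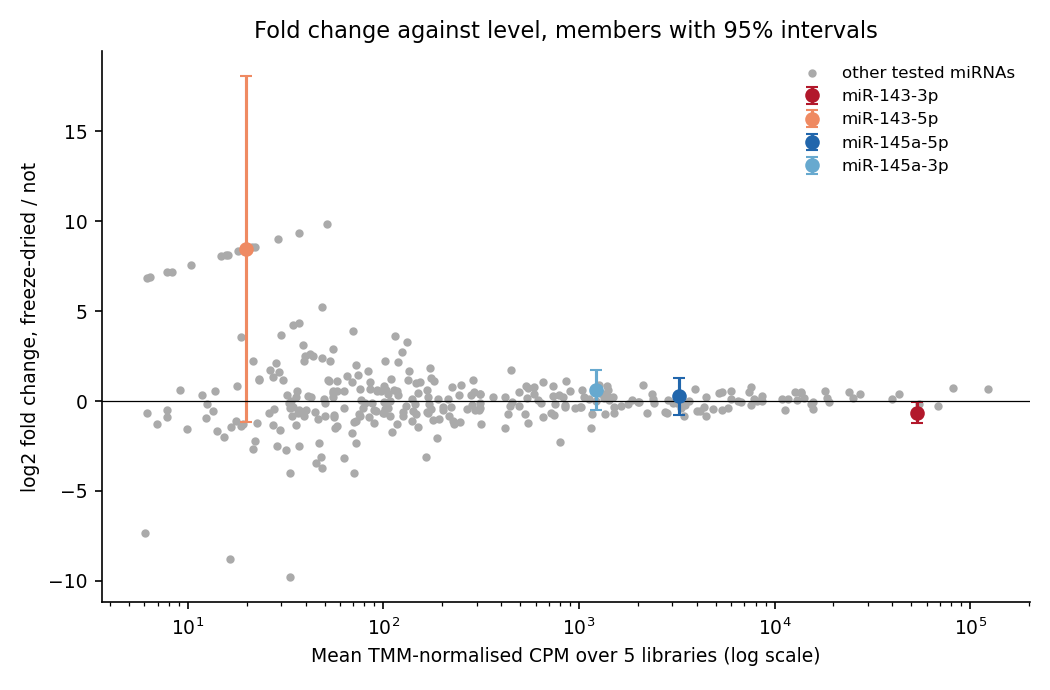
log2 fold change of freeze-dried over not freeze-dried EVs (vertical axis) against mean TMM-normalised CPM over the 5 libraries (horizontal axis, log scale) for the 327 tested miRNAs, with edgeR 95% intervals for the 4 cluster strands. miR-143-3p sits at the abundant end at -0.66, the miR-145a strands at 0.25 and 0.62 with intervals across 0, and miR-143-5p at low level with an interval from -1.15 to 18.1.

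As a share of all miRNA counts, the cluster took 7.39% (exact binomial interval 7.34 to 7.45) and 7.88% (7.73 to 8.03) without freeze-drying. In freeze-dried libraries it took 4.87% (4.84 to 4.89), 5.74% (5.71 to 5.77) and 3.52% (3.43 to 3.60). The shares did not overlap, and their means were 7.64% ± 0.34 (SD, n = 2) and 4.71% ± 1.12 (SD, n = 3). The exact two-sided permutation p, taken as the smaller one-sided p doubled, was 0.2. By that rule 0.2 is the smallest that 2 libraries against 3 can give, so the test cannot reach 0.05.

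The let-7 family, a large block of counts, had the higher shares in freeze-dried libraries, with 39.8%, 33.4% and 38.9% of the counts against 28.6% and 27.3%. Whether this is a cause of the cluster's lower share was not tested. With let-7 counts taken out of the total, the cluster's share was 10.4% and 10.8% without freeze-drying and 8.08%, 8.61% and 5.76% with it. The groups again did not overlap (exact two-sided permutation p = 0.20). The mean share with freeze-drying was then 0.706-fold that without it, against 0.616-fold with let-7 counts kept.

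Ratios between miRNAs of one library are free of library scaling. The ratio of miR-143-3p to each of the 86 other miRNAs with at least 1000 CPM outside the cluster was lower on average in freeze-dried EVs for 80 and higher for 6. For 49 of the 86 the ratio was lower without overlap between groups, and for 0 it was higher. All 86 ratios share the counts of miR-143-3p and are not independent, and its level alone already separated the groups. Such counts of ratios were made for the abundant cluster strands only, so they have no background share from other miRNAs. For miR-145a-5p the same ratios were lower for 22 and higher for 64, with 0 lower and 1 higher without overlap. For miR-145a-3p they were lower for 12 and higher for 74, with 0 lower and 16 higher without overlap.

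miR-21a-5p, a stromal miRNA of another locus and of like abundance, was one for which the ratio did not separate the groups. The ratio of miR-143-3p to miR-21a-5p was 0.928 and 0.879 without freeze-drying and 0.664, 1.26 and 0.437 with it. Freeze-dried replicate 2 lay above both not freeze-dried libraries and the other two below them (log2 difference -0.34, exact two-sided permutation p = 0.80, n = 2 and 3). Without freeze-dried replicate 3 the difference was 0.02.

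Within the cluster, the balance between the hairpins was also measured. Reads of mature miRNAs are of nearly one length, so counts need no length scaling, but how well each strand is captured in a library was not measured. In every library the order was miR-143-3p, miR-145a-5p, miR-145a-3p and miR-143-5p. The ratio of the guides, miR-143-3p to miR-145a-5p, was 14.8 and 45.9 without freeze-drying and 17.9, 9.66 and 12.9 with it. The groups overlapped, and the shallow not freeze-dried library stood far above the other 4. The log2 ratio differed by -0.996 between the groups (exact two-sided permutation p = 0.40, n = 2 and 3), by -0.18 with the shallow not freeze-dried library left out and by -1.81 with the deep one left out.

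Against the other strand of miR-145a the groups did not overlap. The ratio of miR-143-3p to miR-145a-3p was 52.9 and 109 without freeze-drying and 23.8, 32.8 and 41.7 with it. The mean log2 ratio was 6.24 ± 0.74 (SD, n = 2) and 5.00 ± 0.40 (SD, n = 3). The difference was -1.25 (two-sided exact permutation test, p = 0.20, the lowest it can give with the one-sided p doubled). It was -0.73 without not freeze-dried replicate 2 and -1.77 without not freeze-dried replicate 1. This ratio was chosen after the values had been seen. Over the 6 values given such permutation tests, the cluster's share with and without let-7 and 4 log2 ratios, the lowest Benjamini-Hochberg adjusted p was 0.4.

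**Figure D3:**
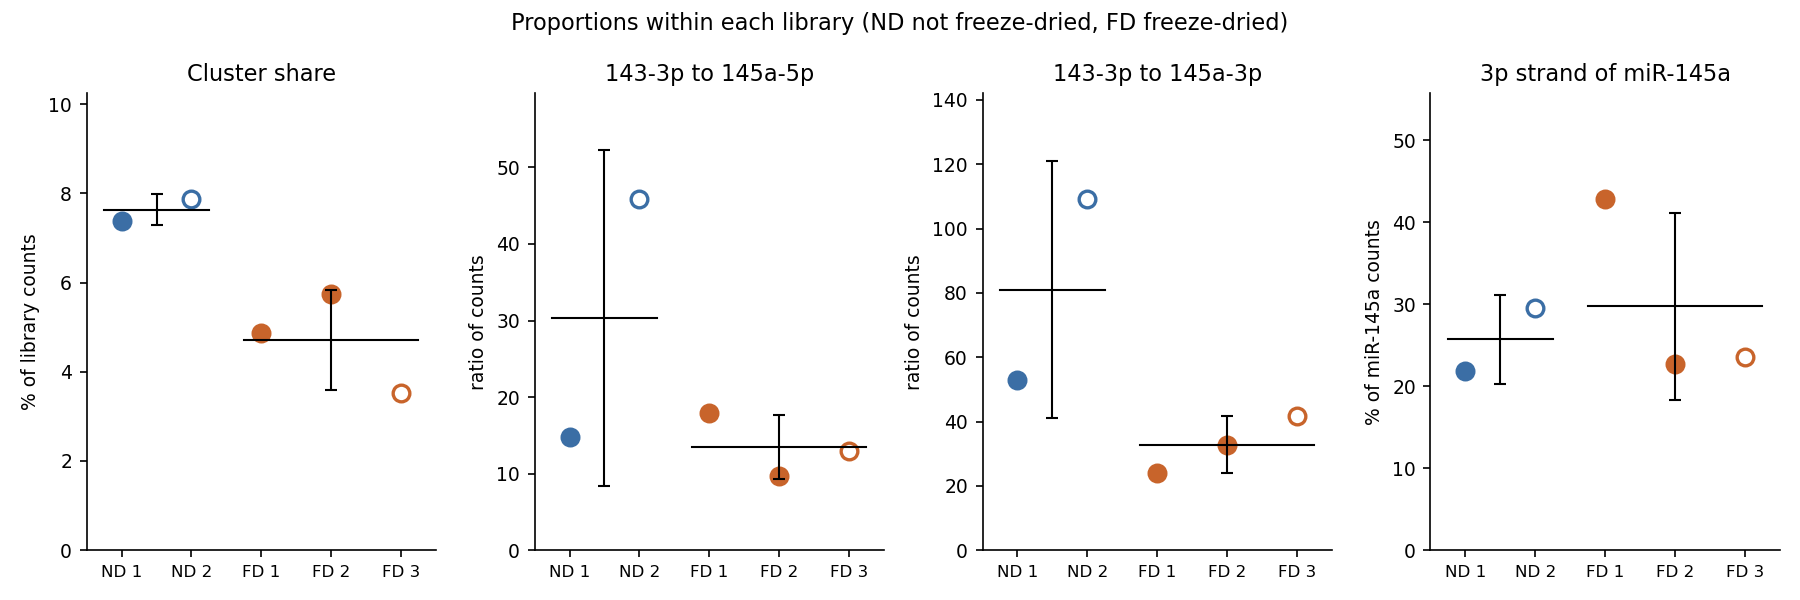
Proportions within each library (ND not freeze-dried, FD freeze-dried; filled points deep, open points shallow; lines and bars are group means and SD of the plotted values, all axes from 0). From left to right are the cluster's share of counts in percent, the count ratios of miR-143-3p to miR-145a-5p and to miR-145a-3p, and the 3p strand as percent of miR-145a counts. The groups do not overlap for the cluster's share and the ratio to miR-145a-3p, and they overlap in the other panels.

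The hairpins differed in how evenly their strands were found. Over all libraries the minor strand made up 0.0532% of miR-143 counts (177 against 332424) and 29.8% of miR-145a counts (10635 against 25060). Of 103 hairpins with at least 1000 counts over both strands, the median was 0.808%. Counted from the lowest share, miR-143 was at place 33 and miR-145a at place 91. These shares pool libraries of unequal depth. Without freeze-dried replicate 2 the share of miR-143 was 0.0246%, at place 25 of 85 hairpins that then had 1000 counts. Without freeze-dried replicate 1 that of miR-145a was 22.6%, at place 74 of 84.

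The 3p strand made up 21.9% (exact binomial interval 20.8 to 23.0) and 29.6% (24.6 to 34.99) of miR-145a counts without freeze-drying. With freeze-drying it made up 42.8% (42.0 to 43.7), 22.7% (22.1 to 23.4) and 23.6% (20.3 to 27.1). One library, freeze-dried replicate 1, stood apart from the other 4. The log2 ratio of 5p to 3p differed by -0.25 between groups (exact two-sided permutation p = 0.80, n = 2 and 3), and by 0.19 without that library.

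The 5p strand of miR-143 made up 0.0348% (0.0254 to 0.0466), 0.101% (0.0838 to 0.120) and 0.0977% (0.0359 to 0.212) of miR-143 counts in the freeze-dried libraries. In the others it was 0 of 62064 counts, which allows up to 0.00483%, and 0 of 10050, which allows up to 0.0299%. Both limits, at the floor of 3 counts, lie below the 3 freeze-dried values, although the second is inside the interval of the lowest. By the exact binomial interval used for the freeze-dried values, the limits are 0.00594% and 0.0367%. The second then lies above the lowest freeze-dried value. Of the 103 hairpins, 2 had a minor strand with counts in each freeze-dried library and none in the others, miR-143 and miR-148a, the latter named after its values were seen.

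The miRNAs whose levels followed miR-143-3p most closely were found by the SD of their log2 ratio to it over the 5 libraries, among 88 with at least 1000 CPM. The closest were miR-652-3p (SD 0.18), miR-151-3p (SD 0.20), miR-99b-5p (SD 0.20), miR-93-5p (SD 0.21) and miR-24-3p (SD 0.22), against a median SD of 0.58. As miRNAs chosen for following miR-143-3p over the same libraries, they had log2 fold changes below 0, from -0.65 for miR-652-3p to -0.37 for miR-93-5p, which restates the choice. None was called. Its cluster partner miR-145a-5p had an SD of 0.85 and came at place 74 of the 88.

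For miR-145a-5p the closest were miR-129-5p (SD 0.40), miR-125b-5p (SD 0.41), miR-125a-5p (SD 0.42), miR-27a-3p (SD 0.44) and miR-574-3p (SD 0.45), against a median of 0.71. miR-143-3p was at place 64 of 88. The guides of this one transcript were therefore not among each other's closest in level across these 5 libraries. Much of that SD came from the shallow not freeze-dried library, with a log2 ratio of 5.52 against 3.27 to 4.16 in the others. The places were not recomputed without it. In mean level miR-143-3p, at 53692 ± 15967 CPM (SD, n = 5), lay between miR-92a-3p at 54599 ± 34566 and let-7a-5p at 43186 ± 11992, and it differed from neither beyond the spread. miR-145a-5p, at 3232 ± 1329 CPM, lay between miR-30e-5p and miR-28a-3p, and miR-145a-3p, at 1229 ± 511 CPM, between miR-669c-5p and miR-1198-5p. These differences too were within the spread. The SDs here run over libraries of both groups, and differences within a library were not tested.

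Other miRNAs known to act on smooth muscle phenotype were set beside the cluster. Of 25 listed, 23 had a count and 22 were tested, with 10 above and 12 below a fold change of 1, a median log2 fold change of -0.05 and 0 called. Together they took 21.3% and 23.8% of the counts without freeze-drying and 18.5% to 20.4% with it, without overlap. miR-21a-5p, which promotes growth of smooth muscle cells, stood at -0.28 (SE 0.33) on the log2 scale and miR-125b-5p at 0.11 (SE 0.28). In this list 3 members were lower without overlap, miR-24-3p, miR-29c-3p and miR-133a-3p, and 1 was higher, let-7g-5p, beside 8.56% and 8.87% of all tested miRNAs. Those 4 were named after their values were seen.

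The mesenchymal and fibroblast list had 31 tested members, 13 above and 18 below a fold change of 1, with a median of -0.07 and 0 called. The muscle miRNA miR-1a-3p, which also depends on serum response factor, stood at 0.38 (SE 0.37) on the log2 scale. miR-206-3p of skeletal muscle stood at 0.15 (SE 0.39). Of 7 listed striated muscle miRNAs 5 had a count and 4 were tested, with 0 called. Of these 4, 3 were above and 1 below a fold change of 1. The 1 below was miR-133a-3p at -1.42 (SE 1.44), lower without overlap, and miR-499-5p stood at 3.69 (SE 3.20). The abundant strands kept to different sides of 0 when the counts were processed otherwise. miR-143-3p was below 0 in all 16 alternatives to the edgeR fit and miR-145a-3p above 0 in all 16, while miR-145a-5p was below 0 in 3 of them. All alternatives reuse the same libraries or some of them, so they are not independent of the first fit or of each other. In such bulk samples, fewer vesicles that carry a miRNA and less of it in each vesicle cannot be told apart.

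**Figure D4:**
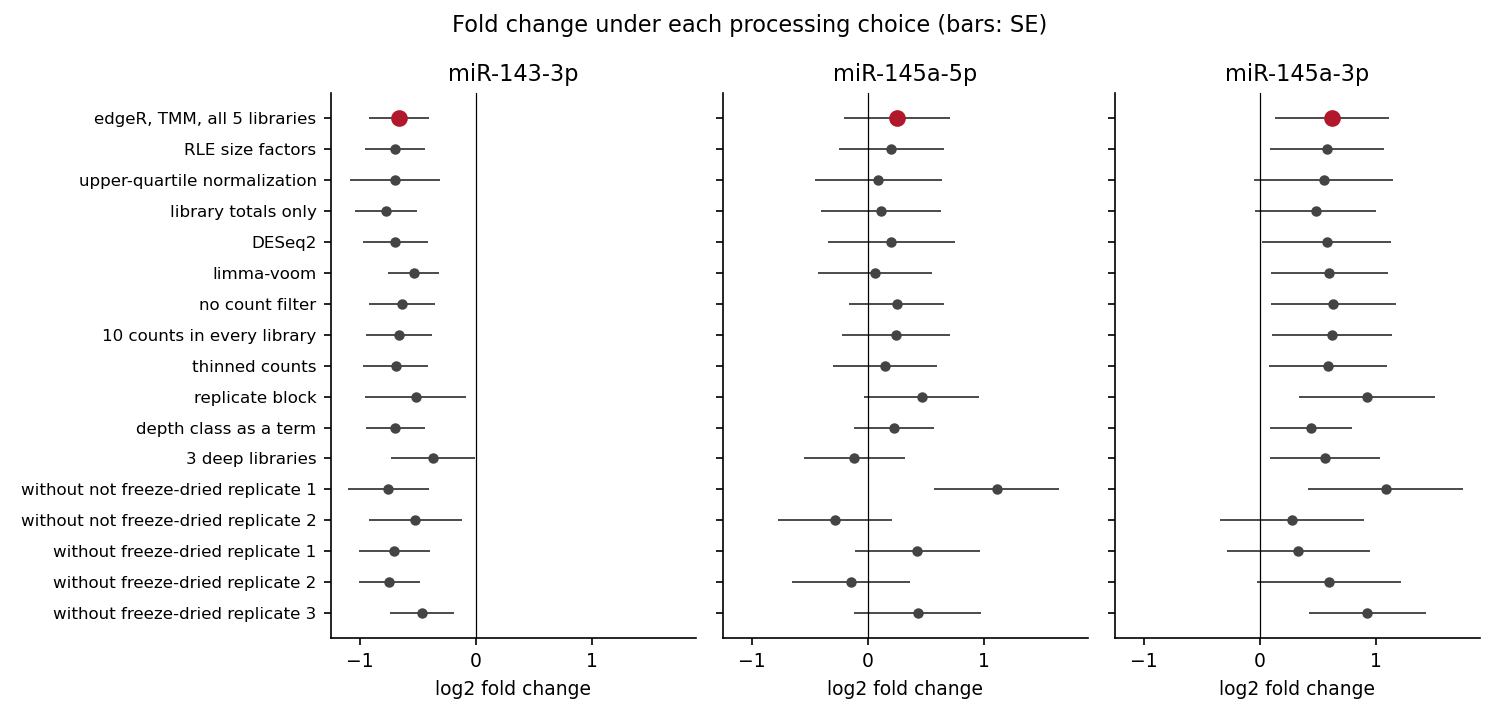
log2 fold change (horizontal axes) of the 3 abundant strands under each processing choice (vertical axis), with SE as bars and the value of the edgeR fit to all 5 libraries in red. miR-143-3p stays below 0, between -0.77 and -0.37, miR-145a-3p stays above 0, between 0.28 and 1.08, and miR-145a-5p lies on both sides of 0.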

How the data were processed

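Per the labels' protocols, small RNA libraries of EVs were prepared with a NEXTFLEX kit. The authors deposited raw counts, 1 row per mature miRNA. Among the tools in the submitters' processing notes are featureCounts 1.5.0-p1, Bowtie 1.1.2 and cutadapt 2.3, and the build there is GRCm38. Whether strand was used, duplicates removed or reads with several matches split is not stated there.

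The quasi-likelihood test of edgeR 4.0.16 (R 4.3.3, robust, TMM, filterByExpr) was run on the counts, with Benjamini-Hochberg adjustment over all 327 tested miRNAs and a threshold of 0.05. Alternatives used DESeq2 1.42.0, limma-voom (limma 3.58.1), other normalizations and filters, thinned counts, fewer libraries, a depth term and a replicate block. Ratios added 0.5 to counts in tests on the log2 scale. Permutation tests doubled the smaller one-sided p. Totals of 131507 to 2914305 counts set the precision. Intervals and floors of 3 counts take in counting error alone, and reads may repeat a molecule. Functions were tested on simulated data.

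The cluster, the lists, the depth classes and the rule for naming miRNAs were chosen with earlier results of these data known. Named are the members, the 5 miRNAs closest to each guide, those next to each member in mean level, the called or the 2 most abundant miRNAs of a list, and miR-21a-5p. Others were named after their values were seen: miR-145b, miR-148a, miR-182-5p, miR-183-5p, miR-499-5p and miR-126a-5p. So were further leukocyte and epithelial list members with counts, and list members at 0 or without overlap. Further results of the endothelial, epithelial, leukocyte and red cell lists are in the closing section.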

Additional observations from a re-analysis of the deposited data

How the results depend on the processing

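No miRNA was called higher under any of 16 alternatives. The count of 0 called lower became 4 with the replicate block and 1 in the 3 deep libraries, none of them in the cluster. In the 2 pairs of equal replicate number the deviations from the group means had correlations of 0.15 and -0.11. Around a mean of 2 libraries such deviations are mirror images, so these values cannot decide whether equal numbers mean a shared culture. With the block miR-143-3p was at -0.52 and miR-145a-3p at 0.92. miR-143-3p stayed below 0 and uncalled in all 16 (-0.77 to -0.37, adjusted p 0.62 to 0.999), with -0.37 in the deep libraries and -0.76 to -0.47 when 1 library was left out. miR-145a-3p ranged from 0.28 to 1.08. miR-145a-5p ranged from -0.29 to 1.11, turning to -0.12 in the deep libraries. miR-143-5p was not tested in thinned counts, at 10 counts in every library or without freeze-dried replicate 2. The difference in cluster share of -2.93 percentage points ranged from -3.45 to -2.33 without 1 library and was -2.09 in the deep libraries. The log2 ratio of miR-145a-5p to miR-145a-3p ranged from -0.54 to 0.19 without 1 library, and turned to 0.044 without not freeze-dried replicate 1. That of miR-143-3p to miR-21a-5p ranged from -0.74 to 0.016, and was 0.016 with the replicate block. The cause was not tested. Scaling by library totals moved the median of all miRNAs to -0.09. Below 1000 CPM the median SE was 2.08 on the log2 scale, against 0.35 above.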

Other observations

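Lists of other cell types held few counts. The endothelial list had a count for 2 of 4 members and took 0.00623% to 0.0403% of the counts. miR-126a-3p led it except in freeze-dried replicate 1, where miR-126a-5p had 265 counts against 241. The epithelial list had a count for 5 of 8 members, led by miR-203-3p and miR-200a-3p. It took 0.0707% and 0.0753% without freeze-drying against 0.0203% to 0.0435% with it, without overlap. Most of its counts were of miR-203-3p, and only 2 of its 8 members were tested. miR-203-3p was itself lower without overlap, beside 8.56% of all tested miRNAs. The leukocyte list had a count for 3 of 5 members, led by miR-155-5p and miR-150-5p, and took 0.0567% to 0.138%. The red cell list had a count for 4 of 5 members, led by the miR-486 copies a and b (5p strands), and took 0.0758% to 0.170%. In each of these lists 0 members were called. Their part in the lower level of miR-143-3p was not tested.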
